A study of Mus musculus with 31 samples.

Results

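Cytoskeleton and motor genes made up 89 of the 1922 splicing events that RASL-seq counted in mouse cortex, taken from models of Huntington's disease (HD) and from their controls, and 57 of the 1559 genes. They were chosen by gene symbol alone: ankyrins, protein 4.1, spectrin and adducin genes, microtubule-associated proteins, kinesins, dyneins, myosins, plus-end proteins, spectraplakins, tropomyosins, LIM-domain actin proteins, liprins, tubulin genes, and the genes named Anks or Ttc, which the symbol rule takes in although they are not cytoskeletal by name. Of the 89 events, 83 were cassette exons, 2 were alternative 3′ splice sites (Pdlim5 and Kif1b event 8901), 2 alternative 5′ splice sites (Klc1 and Add1 event 4096) and 2 pairs of mutually exclusive exons (Tpm1 and Tpm2). The largest families were the spectrin membrane skeleton with 26 events in 11 genes, the kinesins with 14 events in 9 genes and the microtubule-associated and plus-end proteins with 12 events in 9 genes. Events of 1 gene share its transcripts, and 5 pairs of events (in Epb4.1, Ablim1, Ttc3, Add1 and Kif1b) overlapped or shared an edge, so the events are not independent of each other.

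The libraries came from total RNA of the cortex of 31 untreated mice, 1 library per mouse, and the methods describe the animals as balanced for sex. R6/2 mice (strain B6CBA-Tg(HDexon1)62Gpb/3J), which carry a transgene with exon 1 of human HTT and keep their own mouse Htt, were taken at 3 months as 3 HD mice and 3 WT controls. In the knock-in lines the CAG repeat of the mouse Htt gene itself is lengthened, so that mutant protein is made from the gene's own promoter. Q150 mice (B6.129P2-Htttm2Detl/150J) were 7 months old and were 4 HET mice with 7 glutamines on 1 allele and 150 on the other, 4 HOMO mice with 150 on both, and 5 WT mice with 7 on both. Q175 mice were 18 months old, with 4 HET, 3 HOMO (175 glutamines) and 5 WT mice. Line and age cannot be told apart in this design.

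The spectrin membrane skeleton is a lattice of spectrin tetramers and short actin filaments under the plasma membrane, to which ankyrins and protein 4.1 tie ion channels and adhesion molecules; in neurons it shapes the axon and the axon initial segment. Microtubules are the tracks of axonal transport: kinesins carry cargo towards their growing ends, cytoplasmic dynein carries cargo back, and proteins such as tau, MAP2 and MAP6 bind and stabilise them. Many of these proteins are made in several forms in the brain because short exons are kept or left out of their mRNA.

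In RASL-seq, probe pairs anneal to the 2 junctions that tell an included from a skipped exon, and the ligated pairs are amplified and counted. The short junction joins the outer exons and the long junction holds the exon, and exclusion is used here for the percentage of short counts in the sum of both. For the 6 events that are not cassette exons, short and long stand for the 2 alternative splice sites or exons. Changes are given as log2 of short over long counts, mutant minus WT, with the SE from limma, and an event is said to have passed where its Benjamini-Hochberg adjusted p over all events of its set was below 0.05. A mean exclusion is given with its SD over mice.

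Depth ran from 2171709 to 5256516 junction counts per mouse, of which the cytoskeleton and motor events took 9.03% to 10.01%. A typical member event had a median of 918 to 2056.5 counts in a mouse. The 95% Wilson interval of an event's exclusion in the mouse with the fewest counts had a median half-width of 1.70 to 1.92 percentage points, and the widest reached 20.7 points, for counting error only. The knock-in mice were split here into 2 series of mouse numbers, which the labels do not name. The low and high series run from 1 to 80 and 402 to 421 in Q150, and from 544 to 880 and 3857 to 8179 in Q175. Within the high Q175 series, HOMO mouse 1 (number 8179) stands apart from the other mice (3857 to 3903). In Q150 every group spans both series. All Q175 HET mice are in the low series and all Q175 HOMO mice in the high series, so HOMO and HET mice of Q175 differ in series too. Neuronal markers (Dlg4, Grin1 and Syt1, 3 of the 8 listed) summed to 25879 to 30584 CPM (counts scaled to the same total in every library) in R6/2 HD mice and 33545 to 37781 in R6/2 WT mice, without overlap. In the Q150 line HOMO mice, at 29911 to 34181.5, also lay below WT mice, at 34329.5 to 41446, whereas HET mice (29658 to 37484) overlapped WT. Q175 HOMO mice (31890 to 36768) lay within the WT range of 30543 to 38704. None of the 5 astrocyte and 4 microglia markers is among the events, oligodendrocyte markers overlapped between groups in every model, and the part of the cell make-up in the splicing results was not tested.

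Between 81 and 87 member events were listed in each set of mice, and 81 in all 3 sets. In WT mice they covered the whole range of exclusion, from 0.137% to 99.3%, with a median of 33.4% in R6/2, 35.2% in the Q150 set and 32.4% in the Q175 set. Of the 83 cassette exons, 70 could be matched to exactly 1 exon of the GRCm38 annotation by gene and by the distance between the flanking exons. The matched exons had a median length of 78 bases, against 90 over all matched cassette exons. They were wholly coding in 61 of 70 cases (87.1%, against 77.2% of all 1510), had a length that is a multiple of 3 in 62 (88.6%, against 65.6%) and were no longer than 30 bases in 9 (12.9%, against 6.36%). Leaving out such an exon therefore mostly keeps the reading frame. The motif TGTGTG, searched on the transcribed strand in the 200 intron bases on each side of the exon, was found beside 22 of the 70 member exons (31.4%) and beside 456 of all 1510 (30.2%).

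The 3 exons below are those whose exclusion passed in R6/2 HD, Q150 HOMO and Q175 HOMO mice alike. All are coding and keep the frame: in Ank2 a 99-base exon at chr3:127248134-127248232 (minus strand), in Macf1 a 102-base exon at chr4:123354479-123354580 (minus strand) and in Mtap7d2, now Map7d2, a 99-base exon at chrX:159460267-159460365 (plus strand), in GRCm38. Each is printed 5′ to 3′ on the strand of the gene, the exon in capitals and 20 intron bases on each side in lower case.
Ank2 event 9470: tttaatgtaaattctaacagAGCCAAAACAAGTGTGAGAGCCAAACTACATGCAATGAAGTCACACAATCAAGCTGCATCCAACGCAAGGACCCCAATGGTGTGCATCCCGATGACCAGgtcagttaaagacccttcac
Macf1 event 4594: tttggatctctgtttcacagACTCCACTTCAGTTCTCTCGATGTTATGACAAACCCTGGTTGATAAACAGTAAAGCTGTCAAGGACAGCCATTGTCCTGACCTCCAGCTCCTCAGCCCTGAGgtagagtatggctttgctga
Mtap7d2 event 4400: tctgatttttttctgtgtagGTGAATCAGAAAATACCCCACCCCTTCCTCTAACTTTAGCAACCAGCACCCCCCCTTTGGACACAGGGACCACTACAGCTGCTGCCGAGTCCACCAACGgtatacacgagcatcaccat

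Compared with WT mice, exclusion of cytoskeleton and motor exons rose far more often than it fell in R6/2 cortex. Of 81 events, 23 passed, against 28.6% of all 1743 events; 22 had higher exclusion (all events 21.1%) and 1 lower, in Dync1i1 (all events 7.46%). The share that passed was thus close to that of all events. In Q150 HOMO mice 27 of 87 events passed (all events 23.9%), 22 higher (19.8%) and 5 lower (4.09%). In Q175 HOMO mice 10 of 86 passed (7.07%), 8 higher (5.6%) and 2 lower (1.47%). The median log2 change of the members was 0.34 in R6/2, 0.26 in Q150 HOMO mice and 0.01 in the Q175 HOMO group, beside 0.18, 0.19 and 0.07 over all events. Because all events together shifted upwards, each mouse was also centred on its median event. Then 22 members passed in R6/2, 17 higher and 5 lower (all events 27.6%, 16.4% higher and 11.2% lower). Q150 HOMO mice had 18, 10 higher and 8 lower (18.3%, 9.52% and 8.8%). The Q175 HOMO group then had 9 calls, 6 higher and 3 lower (5.82%, 4.08% and 1.74%). The 10 Q175 HOMO calls fell to 3 with the series of mouse numbers as a term (all events 4.46%), those of Ank2 event 7043, Epb4.1 event 7146 and Mtap7d2, and to 0 without limma's variance trend; 20 had an unadjusted p below 0.05 with the trend. All 27 Q150 HOMO calls were kept with that term, when 33 passed (all events 30.2%). Within the low series 16 of the 27 were kept, and within the high series 6, those of Ank2 event 9470, Clasp1 event 4930, Macf1, Myo9a, Spna2 event 8904 and Ttc3 event 9430. Without the variance trend 18 of the 27 were kept, and 14 of the 23 R6/2 calls; those lost in R6/2 were Dst event 4084, Dync1i1, both Ank3 events, Myo9a, Spna2 event 8509, Epb4.1l4b, Ttc3 event 8731 and Kif1b event 8901.

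**Figure D1:**
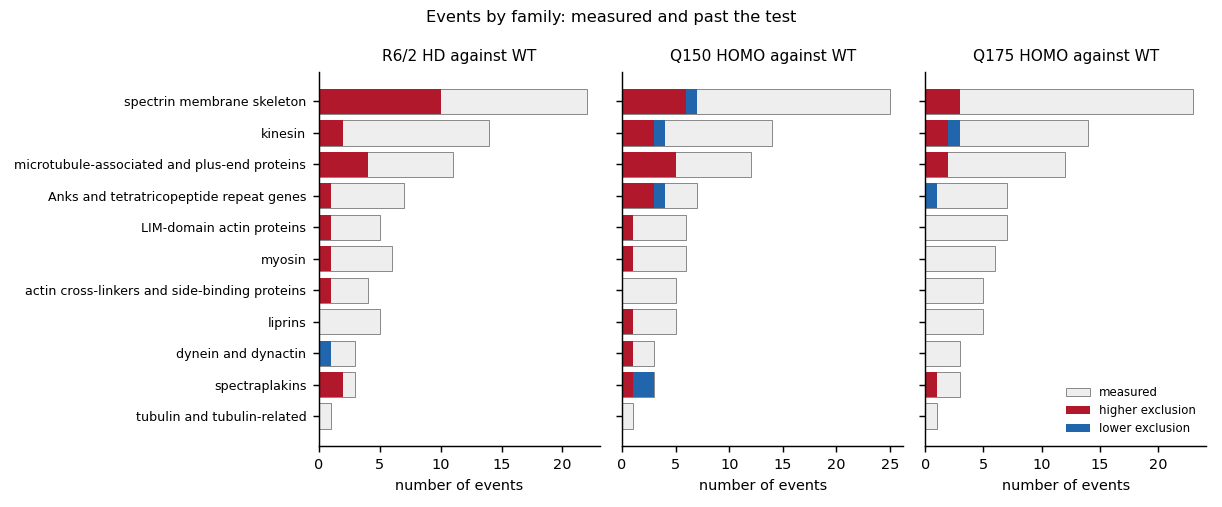
Number of cytoskeleton and motor events by family (rows) in R6/2 HD, Q150 HOMO and Q175 HOMO mice against WT (panels). Pale bars give the events measured, red those with higher and blue those with lower exclusion past the test; in R6/2 10 of 22 spectrin membrane skeleton events are red and none is blue.

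By family, the spectrin membrane skeleton held 10 of the 23 R6/2 calls, from 22 events measured, all higher (all events 28.6%, with 21.1% higher). In Q150 HOMO mice 7 of its 25 events passed, 6 higher and 1 lower (all events 23.9%, with 19.8% higher and 4.09% lower). In Q175 HOMO mice 3 of 23 passed, all higher (all events 7.07%, with 5.6% higher). Microtubule-associated and plus-end proteins passed in 4 of 11, 5 of 12 and 2 of 12 events, in each case higher, beside the same shares. Kinesins passed in 2 of 14 events in R6/2, 4 of 14 in Q150 HOMO (3 higher) and 3 of 14 in Q175 HOMO mice (2 higher), again beside 28.6%, 23.9% and 7.07% of all events. The 5 liprin events gave no call in R6/2 (1 of them had an unadjusted p below 0.05 in limma), 1 call among Q150 HOMO and 0 among Q175 HOMO mice (1 unadjusted). No test compared the families with each other.

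**Figure D2:**
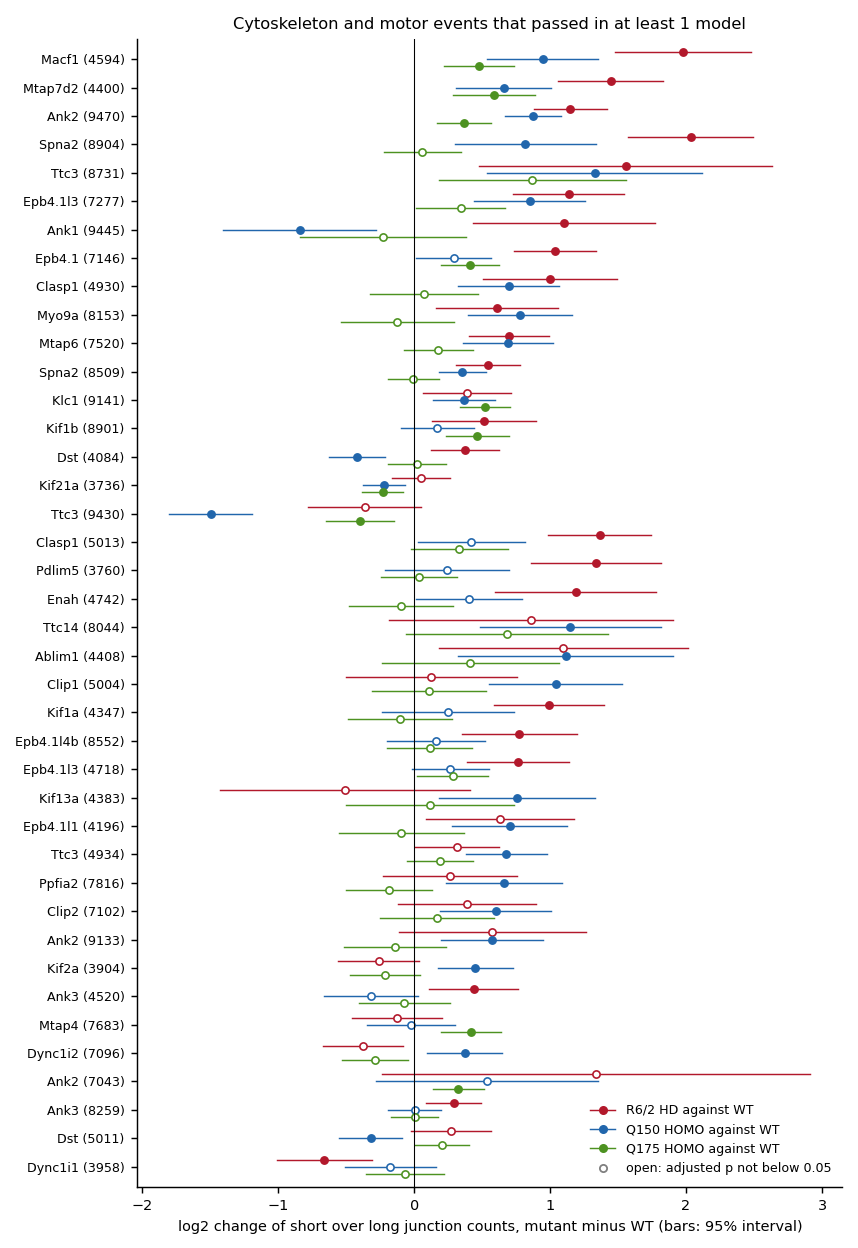
Log2 change of short over long junction counts, mutant minus WT (x axis), for the 40 cytoskeleton and motor events that passed in at least 1 of R6/2 HD, Q150 HOMO and Q175 HOMO mice (rows; event number in brackets). Points are limma estimates, bars 95% intervals, and filled points passed; most filled points lie to the right of 0, with Ttc3 event 9430 at -1.50 in Q150 HOMO mice farthest to the left.

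The models share no mice. Of the 81 events listed in all 3 sets, 3 passed in R6/2 HD, Q150 HOMO and Q175 HOMO mice, all 3 with higher exclusion (3.70%, against 4.09% of all events), 14 passed in exactly 2 models (17.3%, against 13.2%), 23 in 1 (28.4%, against 23.5%) and 41 in none (50.6%, against 59.3%). R6/2 and Q150 HOMO mice had 12 called members in common (14.8% of the 81, against 14.7% of all events), of which 10 had the same direction; among all events 239 of 244 did.

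Ank2 encodes ankyrin-B, an adaptor between the spectrin skeleton and membrane proteins. Exclusion of its 99-base exon (event 9470) was 21.5%, 24.5% and 21.5% in the 3 R6/2 WT mice and 36.0%, 42.4% and 39.0% in the 3 HD mice, a change of 1.15 ± 0.12 (adjusted p = 3.32e-05). In the Q150 line the 5 WT mice lay at 26.3%, 28.3%, 26.9%, 26.4% and 23.3%, the HET mice at 31.1%, 35.3%, 31.5% and 31.9%, and the HOMO mice at 39.4%, 39.5%, 39.2% and 39.6%. The groups did not overlap, and HOMO mice differed from WT by 0.88 ± 0.10 (adjusted p = 1.49e-06), HET from WT by 0.44 (adjusted p = 0.0186) and HOMO from HET by 0.44 (adjusted p = 0.0252). In Q175 HOMO mice the values were 29.1%, 31.8% and 28.5% against a WT mean of 24.8%, a change of 0.36 (adjusted p = 0.0154). That was smaller than the R6/2 change by 0.78 ± 0.16 (adjusted p = 0.000603) and smaller than the Q150 HOMO change by 0.51 ± 0.14 (adjusted p = 0.0384). The Q175 call was lost once the series was a term of the fit (0.26, adjusted p = 0.261), within the high series (0.26, adjusted p = 0.222), against all 10 knock-in WT mice, without the variance trend, when WT mouse 8 or HOMO mouse 2 was left out, and with each mouse centred, while the calls of R6/2 HD and Q150 HOMO mice against WT were kept under every alternative run. The Q150 HET call was lost with each mouse centred, without the variance trend, within the high series and without HET mouse 1 or 2.

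Macf1 encodes a spectraplakin, a giant protein that joins actin filaments to microtubules. Its 102-base exon was left out of most transcripts already in WT mice: exclusion was 92.9%, 92.6% and 89.4% in R6/2 WT and 97.3%, 97.7% and 98.2% in R6/2 HD mice (1.98 ± 0.23, adjusted p = 5.85e-05). Q150 HOMO mice lay at 96.3%, 95.2%, 95.02% and 93.8% against WT at 92.1%, 93.3%, 89.9%, 89.4% and 89.95% (0.94 ± 0.20, adjusted p = 0.00138). Q175 HOMO mice lay at 91.4%, 92.8% and 90.6% against WT at 88.9%, 87.2%, 88.6%, 89.95% and 89.0% (0.48 ± 0.13, adjusted p = 0.0154). HD and HOMO mice lay above all WT mice of their line, while HET mice overlapped WT. The change in R6/2 exceeded that in Q150 HOMO by 1.03 (adjusted p = 0.0118) and that in Q175 HOMO mice by 1.502 (adjusted p = 0.000365). The Q175 call was lost once the series was a term of the fit (0.37, adjusted p = 0.215), within the high series, against all 10 knock-in WT mice, without the variance trend and when HOMO mouse 2 was left out.

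Mtap7d2 encodes a MAP7-domain protein that binds microtubules and recruits kinesin-1. Its exon was nearly always kept: exclusion was 2.18%, 2.23% and 3.00% in R6/2 WT and 6.21%, 5.95% and 7.11% in R6/2 HD mice (1.44 ± 0.18, adjusted p = 8.8e-05). It averaged 3.73% ± 0.61 in the 4 Q150 HOMO mice against 2.40% ± 0.50 in the 5 WT mice, with 1 WT mouse at 3.27% inside the HOMO range (0.66, adjusted p = 0.00662; 0.25 and adjusted p = 0.521 within the high series). In Q175 HOMO mice it was 3.53%, 2.78% and 3.19%, above all 5 WT mice, which ran from 1.84% to 2.34% (0.58, adjusted p = 0.0102). The R6/2 change exceeded the Q150 HOMO change by 0.79 (adjusted p = 0.0255) and the Q175 HOMO change by 0.86 (adjusted p = 0.0155). Leaving out Q175 HOMO mouse 1 or 3, or the variance trend, ended the Q175 call.

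**Figure D3:**
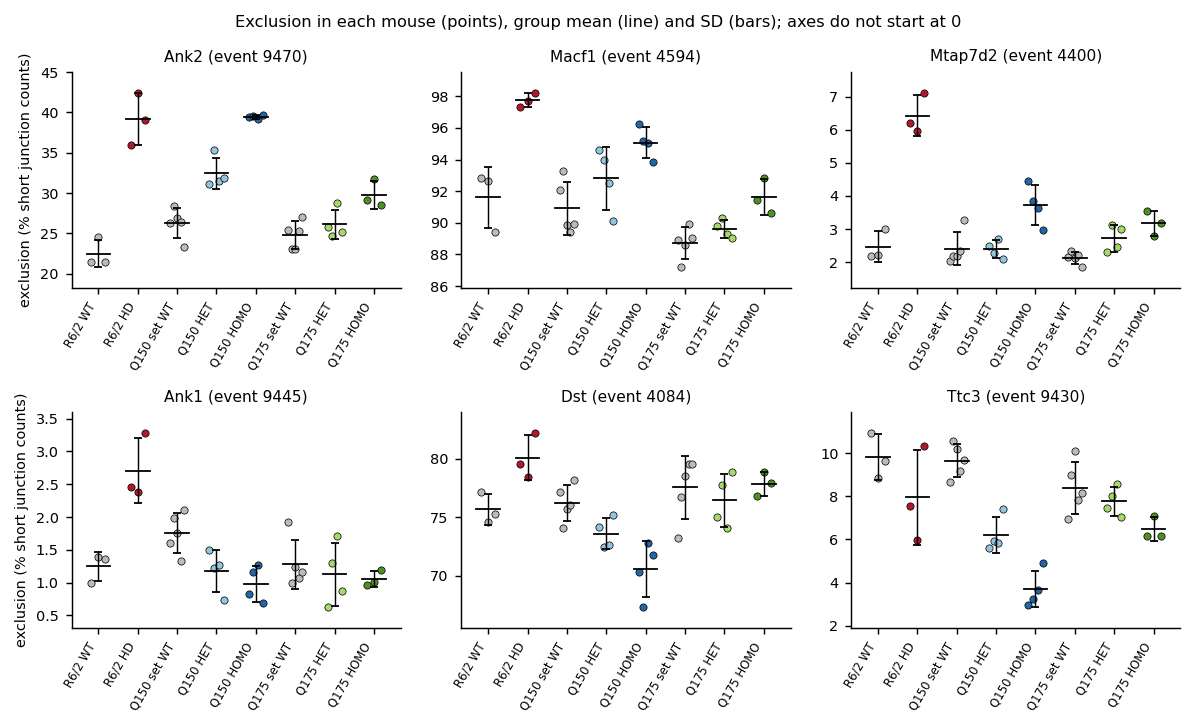
Exclusion (percentage of short junction counts, y axis, not starting at 0) of 6 exons in each of the 31 mice (points), by group (x axis), with the group mean (line) and SD (bars). The Ank2, Macf1 and Mtap7d2 exons lie higher in all 3 mutant groups of R6/2, Q150 HOMO and Q175 HOMO mice, Ank1 and Dst lie higher in R6/2 HD and lower in Q150 HOMO mice, and Ttc3 falls from WT over HET to HOMO in the Q150 line.

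In the spectrin membrane skeleton the R6/2 event with the largest change was in Spna2 (now Sptan1), the gene of alpha-II spectrin. Event 8904, a 51-base exon coding in part, had 51.0%, 49.4% and 49.4% exclusion in R6/2 WT and 77.7%, 79.0% and 84.1% in R6/2 HD mice (2.03 ± 0.21, adjusted p = 2.78e-05). The change was 0.82 in Q150 HOMO mice (adjusted p = 0.0212), where 1 HOMO mouse stood at 73.6% and the others at 54.1% to 56.9%. That call was lost without that mouse, with each mouse centred and without the variance trend. In Q175 HOMO mice the change was 0.06 (adjusted p = 0.872). A second Spna2 exon of 60 bases (event 8509) was excluded in 12.8%, 11.3% and 11.8% of R6/2 WT and in 14.8%, 18.4% and 16.5% of R6/2 HD counts (0.54, adjusted p = 0.00236). In the Q150 line it stood at 9.21% to 10.6% in WT, 11.2% to 12.7% in HET and 11.997% to 12.5% in HOMO mice, and both mutant groups passed (0.31 and 0.35). Both calls were lost with each mouse centred and within the high series, and the HET call also without any of 8 of the 9 mice.

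Protein 4.1 genes, whose products tie spectrin to actin and to membrane proteins, gave several of the further calls. Exclusion of the 63-base exon of Epb4.1 (event 7146) was 82.8% ± 0.81 in R6/2 WT and 90.8% ± 1.10 in R6/2 HD mice (1.04 ± 0.14, adjusted p = 0.000159). It was 80.7% in WT and 84.7% in HOMO mice of the Q175 line (0.41, adjusted p = 0.011, a call lost without HOMO mouse 3, without the variance trend and against all 10 knock-in WT mice). In Q150 HOMO mice it was 84.9% against 82.0%; the groups did not overlap, but the event did not pass (0.29, adjusted p = 0.126). Epb4.1l3 event 7277 rose from 78.8% to 89.1% in R6/2 (1.14, adjusted p = 0.000709) and from 77.4% to 85.9% in Q150 HOMO mice (0.85, adjusted p = 0.00329), and Epb4.1l4b rose from 14.0% to 22.0% in R6/2 (0.77, adjusted p = 0.00992).

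Every ankyrin event that passed in R6/2 had higher exclusion, whereas in Q150 HOMO mice the ankyrin calls went both ways. Ank3, which encodes the ankyrin-G of the axon initial segment, had 2 exons that passed in R6/2, a 27-base microexon (event 8259) with exclusion of 74.5%, 75.4% and 75.5% in WT and 78.8%, 79.1% and 78.2% in HD mice (0.29, adjusted p = 0.0339), and event 4520, which went from 96.9% to 97.7% (0.44, adjusted p = 0.0468). Both R6/2 calls were lost when any 1 of the 6 mice was left out. Neither exon passed in a knock-in line in the main fit. With the series as a term, and with each mouse centred, an Ank3 event passed in Q150 HOMO mice. Among the 4 Ank2 events, the 24-base exon 9133 passed in Q150 HOMO mice, from 0.139% to 0.206%, a call lost with each mouse centred, within each series of mouse numbers and without WT mouse 4 or HOMO mouse 1 or 3. Event 4739, listed in the Q150 set alone, did not pass (97.5% in WT, 97.1% in HOMO mice). Event 7043, a further 99-base Ank2 exon at chr3:127012673-127012771, differed greatly between mice of the same group. In R6/2 it was 11.7%, 10.04% and 11.2% in WT mice and 63.8%, 12.7% and 10.5% in HD mice, and in the Q150 set it ran from 13.2% to 60.9%, without a call in either line (adjusted p = 0.198 in R6/2 and 0.35 in Q150 HOMO mice). In the Q175 set the mice lay close together, at 37.7% to 43.5% in WT and 43.7% to 46.2% in HOMO mice, and the event passed (0.33, adjusted p = 0.0215). That call was lost without WT mouse 9 or 10 or HOMO mouse 2 or 3, with each mouse centred, without the variance trend and against all 10 knock-in WT mice.

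Ank1, the ankyrin first known from red cells, went in opposite directions in 2 models. Its 24-base exon (event 9445) had exclusion of 0.998%, 1.39% and 1.36% in R6/2 WT and 2.46%, 2.38% and 3.28% in R6/2 HD mice (1.10 ± 0.31, adjusted p = 0.0173). In the Q150 line the WT mice lay at 1.60%, 1.98%, 1.75%, 1.33% and 2.10% and the HOMO mice at 0.824%, 1.16%, 1.26% and 0.690% (-0.84 ± 0.27, adjusted p = 0.0276). The difference between the 2 changes was 1.94 ± 0.42 (adjusted p = 0.00172). Few short counts lie behind these percentages, as both junctions of the event together held 296 to 396 CPM in R6/2 mice. The Q150 call was lost without WT mouse 2, 3 or 5 or HOMO mouse 1 or 4, within each series of mouse numbers and against all 10 knock-in WT mice. The R6/2 call was lost without WT mouse 3 or HD mouse 869.

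Among the 58 coding member exons whose sequence was read, all 1637 pairs from different genes were aligned without gaps. With a score of 1 for a match and -1 for a mismatch, the 4 highest-scoring pairs each came from related genes. The exons of 3 of these pairs are printed so that their splicing can be read beside their likeness: Clip1 and Clip2 (73 of 105 bases identical), Dync1i1 and Dync1i2 (43 of 54) and Dst and Macf1 (25 of 31, within longer exons). The exons lie at chr5:123635174-123635278 (Clip1), chr5:134504734-134504838 (Clip2), chr6:5784439-5784498 (Dync1i1), chr2:71233649-71233708 (Dync1i2) and chr1:34303421-34303531 (Dst); the Macf1 exon is printed above. The Clip1 and Clip2 exons are on the minus strand, those of Dync1i1, Dync1i2 and Dst on the plus strand, and capitals mark the exon.
Clip1 event 5004: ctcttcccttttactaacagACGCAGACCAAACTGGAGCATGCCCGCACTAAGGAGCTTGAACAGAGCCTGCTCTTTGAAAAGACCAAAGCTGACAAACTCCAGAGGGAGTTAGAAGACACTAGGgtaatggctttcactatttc
Clip2 event 7102: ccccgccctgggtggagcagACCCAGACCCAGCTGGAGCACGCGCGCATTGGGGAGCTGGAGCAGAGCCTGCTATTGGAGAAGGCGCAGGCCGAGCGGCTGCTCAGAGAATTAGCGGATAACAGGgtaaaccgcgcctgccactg
Dync1i1 event 3958: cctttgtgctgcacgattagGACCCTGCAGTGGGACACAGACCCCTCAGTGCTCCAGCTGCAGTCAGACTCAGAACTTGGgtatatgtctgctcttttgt
Dync1i2 event 7096: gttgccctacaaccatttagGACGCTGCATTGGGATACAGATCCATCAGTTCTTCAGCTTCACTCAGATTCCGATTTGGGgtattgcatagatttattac
Dst event 4084: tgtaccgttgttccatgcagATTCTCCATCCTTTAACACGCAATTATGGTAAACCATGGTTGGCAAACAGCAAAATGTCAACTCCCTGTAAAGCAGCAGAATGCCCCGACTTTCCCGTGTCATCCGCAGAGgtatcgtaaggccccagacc

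Dst and Macf1 are the mouse spectraplakin genes. Their related exons changed in the same direction in R6/2, by unlike amounts, and in opposite directions in Q150 HOMO mice. No test compared the 2 exons with each other. The 111-base Dst exon (event 4084) had exclusion of 77.2%, 74.6% and 75.3% in R6/2 WT and 79.6%, 78.5% and 82.2% in R6/2 HD mice (0.37 ± 0.11, adjusted p = 0.0289), as the Macf1 exon rose too. In the Q150 line the Dst exon lay at 77.2%, 74.1%, 75.7%, 76.1% and 78.2% in WT, 74.1%, 72.4%, 72.6% and 75.2% in HET and 70.4%, 67.3%, 72.9% and 71.8% in HOMO mice. WT and HOMO mice did not overlap, and exclusion was lower in the latter (-0.42 ± 0.10, adjusted p = 0.00391), while that of the Macf1 exon was higher in the same mice. In Q175 HOMO mice Dst did not differ detectably from WT (0.02 ± 0.11, adjusted p = 0.938). The R6/2 change of Dst exceeded its Q150 HOMO change by 0.79 ± 0.16 (adjusted p = 0.00114). The R6/2 call was lost when each mouse was centred on its median event, without the variance trend and without WT mouse 4 or 6 or HD mouse 869. A second Dst exon, of 327 bases (event 5011), was also lower in Q150 HOMO mice, at 60.5% against 65.6% (-0.32, adjusted p = 0.0421), with overlapping groups and a call that 7 of the 9 left-out mice ended.

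Clip1 and Clip2 encode CLIP-170 and CLIP-115, which track growing microtubule ends. Exclusion of the Clip1 exon was 1.46%, 0.860%, 1.40%, 1.58% and 2.08% in Q150 WT and 3.18%, 2.80%, 3.46% and 2.27% in Q150 HOMO mice (1.04 ± 0.24, adjusted p = 0.00265). The related Clip2 exon changed in the same direction in these mice, from 0.764% to 1.16% (0.60 ± 0.20, adjusted p = 0.0301), with 1 WT mouse inside the HOMO range and a call lost with each mouse centred and without any of 5 of the 9 mice. Within the high series neither call was kept. Neither passed in R6/2 or Q175 HOMO mice.

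Mapt encodes tau and Mtap2 MAP2, the main microtubule stabilisers of axons and dendrites. The Mapt exon of event 4580 was kept in nearly all transcripts, with exclusion of 5.47%, 3.75% and 3.78% in R6/2 WT and 3.63%, 3.98% and 4.52% in R6/2 HD mice (-0.10 ± 0.30, adjusted p = 0.835), and the Mtap2 exon of event 4501 was left out of most, at 91.5% ± 1.2 against 92.8% ± 1.5 (0.26, adjusted p = 0.328). Neither exon passed in any of the 5 comparisons with WT, nor did the 87-base Mapt exon of event 4118, which stayed between 94.9% and 97.8% in all 31 mice. With each mouse centred the Mtap2 exon passed in Q150 HOMO mice.

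Clasp1, whose product rescues and anchors microtubule plus ends, had 2 exons with higher exclusion in R6/2. The 117-base exon of event 5013 (chr1:118565143-118565259) rose from 10.8%, 10.3% and 11.5% in WT to 25.1%, 24.3% and 22.5% in HD mice (1.36 ± 0.17, adjusted p = 0.000107). Its change in R6/2 exceeded that in Q150 HOMO mice (0.42, not passed) by 0.94 and that in Q175 HOMO mice (0.33, not passed) by 1.03 (adjusted p = 0.0205 and 0.0112). Event 4930 rose from 83.3% to 90.9% in R6/2 (1.00, adjusted p = 0.0056) and from 81.5% to 87.8% in Q150 HOMO mice (0.69, adjusted p = 0.0075; lost with each mouse centred and, at 0.44 and adjusted p = 0.247, within the low series). Event 4258, listed in the knock-in sets alone and with as few as 36 counts in a mouse, had 31.2% ± 10.2 exclusion in Q150 WT and 36.6% ± 8.3 in Q150 HOMO mice (0.37, adjusted p = 0.483) and passed in no comparison. The exon of Clasp2, a related gene, had 22.6% exclusion in R6/2 WT and 20.4% in HD mice and passed in no comparison.

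Mtap6 (now Map6) encodes a stabiliser of cold-resistant microtubules, and its 197-base exon is 1 of the few member exons that do not keep the frame. Exclusion rose from 4.42%, 4.76% and 4.61% to 6.59%, 7.39% and 7.87% in R6/2 (0.70 ± 0.14, adjusted p = 0.002) and from 4.49% to 6.87% in Q150 HET and 7.13% in Q150 HOMO mice (0.66 and 0.69, adjusted p = 0.0231 and 0.0029). The HET call was lost with each mouse centred, without the variance trend and without WT mouse 3 or 4 or HET mouse 1 or 2, and the HOMO call within the high series. Q175 HOMO mice were at 5.69% against 5.08% (0.18, adjusted p = 0.444). The 222-base exon of Mtap4 (now Map4) passed in both Q175 comparisons with WT, at 76.0% to 78.5% in WT, 81.2% to 83.0% in HET and 78.9% to 86.1% in HOMO mice (0.44 and 0.42, adjusted p = 0.0183 and 0.0112); the HOMO call was lost without HOMO mouse 1, which stood at 86.1%, and within the high series. The HET call was lost with each mouse centred and without WT mouse 6, 8 or 9 or HET mouse 2 or 4. Both calls were lost once the series was a term of the fit, against all 10 knock-in WT mice and without the variance trend. Its values in Q150 HOMO mice split by series of mouse numbers, with 84.8% and 85.7% in the low and 78.3% and 75.7% in the high series. The exon did not pass there with all mice in the fit, but did within each series taken alone.

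Among the motors, the kinesin-3 gene Kif1a, which carries synaptic vesicle precursors, had a 27-base microexon whose exclusion went from 0.650%, 0.752% and 0.614% in R6/2 WT to 1.36%, 1.24% and 1.40% in R6/2 HD mice (0.99 ± 0.19, adjusted p = 0.00158). It did not pass in the knock-in lines. In its relative Kif1b the alternative 3′ splice site of event 8901 passed in R6/2, with 10.9%, 10.6% and 12.4% in WT and 19.6%, 13.9% and 13.2% in HD mice (0.51, adjusted p = 0.0439). The R6/2 call was lost with each mouse centred, without the variance trend and without any of 4 of the 6 mice, and without HD mouse 860, at 19.6%, the change was 0.30. The event also passed in Q175 HOMO mice, with 16.1%, 16.8% and 16.5% against 11.8% to 13.5% in WT (0.46, adjusted p = 0.00806). The Q175 call was lost once the series was a term of the fit (0.44, adjusted p = 0.0703) and without the variance trend. The overlapping Kif1b event 9188 did not pass in any comparison of the main fit, but passed in Q175 HOMO mice with each mouse centred.

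Klc1 encodes a kinesin light chain, the cargo-binding part of kinesin-1, whose variants differ at the carboxyl end. The share of the short junction at its alternative 5′ splice site was 48.1%, 51.3% and 50.2% in Q175 HOMO mice, 39.3%, 41.8%, 36.2% and 40.4% in HET and 38.4%, 38.0%, 40.1%, 42.6% and 46.0% in WT mice. HOMO mice stood above all others of the set (against WT 0.52 ± 0.09, adjusted p = 0.000129; against HET 0.61 ± 0.09, adjusted p = 6.98e-05). The 2 WT mice with the highest values are those of the high series to which all HOMO mice belong, and with the series as a term the changes were 0.32 (adjusted p = 0.0563) and 0.29 (adjusted p = 0.617) and no longer passed. Within the high series alone, HOMO against WT was 0.32 with an adjusted p of 0.0304. Klc1 passed in Q150 HOMO mice as well, at 45.4% against 39.2% (0.37, adjusted p = 0.0194), with 1 WT mouse at 45.4% within the HOMO range. That call was lost with each mouse centred (0.17, adjusted p = 0.343), without the variance trend, within the high series and without HOMO mouse 3 or 4. In R6/2 it was 49.8% against 43.1% (0.39, adjusted p = 0.0711).

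Kif21a, which slows microtubule growth at the cell cortex, went the other way. Exclusion of its 39-base exon (event 3736) was 82.7% ± 0.73 in WT and 80.4% ± 0.55 in Q150 HOMO mice (-0.22, adjusted p = 0.0321) and 81.5% ± 0.74 in WT and 79.0% ± 0.29 in Q175 HOMO mice (-0.23, adjusted p = 0.0462), without overlap in either line. Neither call was kept without the variance trend or within the high series; leaving out any of 6 of the 9 mice ended the Q150 call, and any of 7 of the 8 the Q175 call, which was also lost once the series was a term of the fit (-0.20, adjusted p = 0.269). In R6/2 it was 81.1% in WT and 81.6% in HD mice. Kif2a, a microtubule depolymerase, passed in Q150 HOMO mice, with 37.5% against 30.6% for event 3904 (0.45, adjusted p = 0.0181; lost with each mouse centred, within each series and without WT mouse 3 or HOMO mouse 3).

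The intermediate chains of cytoplasmic dynein, which link the motor to dynactin, gave the single lower call in R6/2. The Dync1i1 exon had 18.6%, 16.8% and 15.1% exclusion in R6/2 WT and 13.4%, 10.3% and 10.4% in HD mice (-0.66 ± 0.16, adjusted p = 0.00865), and it did not pass in the knock-in lines. The related exon of Dync1i2 was at 72.0%, 66.4% and 69.3% in R6/2 WT and 63.7%, 63.6% and 63.1% in HD mice, groups that did not overlap (-0.38, adjusted p = 0.0541). With each mouse centred this exon passed in R6/2. In Q150 HOMO mice the same exon passed with higher exclusion, 67.3% against 61.4% (0.37, adjusted p = 0.046). That call was lost with each mouse centred (0.17, adjusted p = 0.42), without the variance trend, with only the 2 groups in the fit, within each series, against all 10 knock-in WT mice and without any of 7 of the 9 mice. Its Q150 HOMO change exceeded its R6/2 change by 0.75 (-0.75 as R6/2 minus Q150, adjusted p = 0.00686).

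Of the 6 myosin events, that of Myo9a, an unconventional myosin, passed in R6/2 (20.4% to 28.1%, 0.61, adjusted p = 0.0433; lost with a pseudocount of 5, with centring, without the variance trend and without any of 5 of the 6 mice) and in Q150 HOMO mice, where WT mice lay at 15.0%, 20.2%, 17.3%, 16.8% and 14.2% and HOMO mice at 28.7%, 24.1%, 25.5% and 24.0% (0.78 ± 0.18, adjusted p = 0.00373). The other myosin events passed in no comparison with WT among R6/2 HD, Q150 HOMO and Q175 HOMO mice in the main fit. With the series as a term a Myo5a event and Myo9b passed in Q150 HOMO mice, and with each mouse centred a Myo5a event did. Enah encodes Mena, which protects growing actin filament ends; exclusion of its 63-base exon was 93.9%, 89.1% and 93.5% in R6/2 WT and 96.9%, 95.7% and 96.8% in HD mice (1.19 ± 0.27, adjusted p = 0.00608). Pdlim5, a PDZ and LIM-domain scaffold on actin, had 14.5%, 17.96% and 12.5% short counts at its alternative 3′ splice site in R6/2 WT and 24.1%, 34.3% and 34.2% in HD mice (1.34 ± 0.22, adjusted p = 0.000709). The Enah and Pdlim5 changes in R6/2 exceeded those in Q175 HOMO mice by 1.29 and 1.30 (adjusted p = 0.00474 and 0.00458). The mutually exclusive exons of Tpm1, a tropomyosin that lines actin filaments, showed no call: the short junction took 89.1% ± 0.7 in R6/2 WT and 88.4% ± 4.8 in HD mice.

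Ttc3 is not a cytoskeletal gene by name; it encodes a ubiquitin ligase with tetratricopeptide repeats. Its 46-base exon at chr16:94409684-94409729 (event 9430) gave the largest fall among the members that passed and is printed because skipping it shifts the frame.
Ttc3 event 9430: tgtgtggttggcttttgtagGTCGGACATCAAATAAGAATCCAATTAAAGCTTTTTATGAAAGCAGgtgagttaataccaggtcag
Exclusion was 8.69%, 10.6%, 10.2%, 9.17% and 9.70% in Q150 WT, 5.58%, 5.92%, 5.82% and 7.42% in Q150 HET and 2.98%, 3.26%, 3.65% and 4.91% in Q150 HOMO mice. The groups were apart, HET mice between the others (HET against WT -0.70, adjusted p = 0.0117; HOMO against WT -1.50 ± 0.15, adjusted p = 2.95e-07; HOMO against HET -0.80, adjusted p = 0.00583). In Q175 HOMO mice it was 6.47% ± 0.55 against 8.40% ± 1.2 (-0.40, adjusted p = 0.0388), with 1 WT mouse inside the HOMO range and a call lost without any of 5 of the 8 mice, without the variance trend, within the high series and once the series was a term of the fit (-0.33, adjusted p = 0.254). In R6/2 HD mice it was 7.95% against 9.80% (-0.36, adjusted p = 0.184). The fall was larger in Q150 HOMO than in Q175 HOMO mice by 1.10 (-1.10, adjusted p = 0.00366) and larger than in R6/2 by 1.13 (adjusted p = 0.000959). Event 4934, which shares an edge with it, went the other way in the same Q150 mice, from 91.1% in WT to 93.8% in HET and 94.2% in HOMO mice (0.59 and 0.68, adjusted p = 0.0231 and 0.00148). Both calls were lost within the high series. The HET call was also lost with each mouse centred, without the variance trend and without WT mouse 1 or 4 or HET mouse 1, 2 or 3. A 43-base Ttc3 exon (event 8731) had few counts, 18 in the shallowest R6/2 mouse; it passed in R6/2 (57.4% to 80.2%, 1.56, adjusted p = 0.0333; lost without any of 4 of the 6 mice) and in Q150 HOMO mice (52.5% to 73.1%, 1.33, adjusted p = 0.0151; lost within each series and without HOMO mouse 3). The exon of Ttc14, a further gene with tetratricopeptide repeats, was left out of 1.22%, 1.60%, 0.758%, 1.52% and 0.694% of counts in Q150 WT and 3.15%, 2.91%, 2.22% and 1.84% in Q150 HOMO mice, without overlap (1.15 ± 0.32, adjusted p = 0.0127). This call was lost within the high series (adjusted p = 0.277 in limma). At such low exclusion few short counts lie behind each value, and the lowest listed junction count was 4.

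In Q150 HET mice, with 1 mutant allele, 5 of 87 member events passed (all events 3.47%), Ank2 event 9470, Mtap6, Ttc3 event 4934 and Spna2 event 8509 higher and Ttc3 event 9430 lower. Without HET mouse 1 none of the 87 passed in limma, whereas 21 had an unadjusted p below 0.05 with all mice. The share of all events without that mouse was not computed. In Q175 HET mice 1 of 86 passed, Mtap4 (all events 0.598%). HOMO and HET mice share their WT mice, so the 2 comparisons with WT are not independent. Set directly against each other, Q150 HOMO and HET mice differed at 2 events, Ank2 event 9470 and Ttc3 event 9430 (all events 2.18%), and Q175 HOMO and HET mice at 1, Klc1 (all events 0.816%). Both Q150 events passed in HET mice as well, and at both the HET mice lay between WT and HOMO mice. The HOMO against HET call of Ttc3 was kept under every alternative run, and that of Ank2 was lost with each mouse centred, without the variance trend, within the high series and without any of 5 of the 8 mice.

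Mean exclusion over the member events rose from 43.9% ± 0.22 in R6/2 WT to 46.8% ± 0.41 in R6/2 HD mice, by 2.85 percentage points, beside 1.73 points over all events. In the Q150 line it was 44.8% in WT, 45.8% in HET (1.06 points higher; all events 0.936) and 46.9% in HOMO mice (2.10; all events 1.82). In the Q175 line it was 43.4% in WT, 43.3% in HET and 43.9% in HOMO mice (0.575 points higher; all events 0.640). These means are descriptions without a test.

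**Figure D4:**
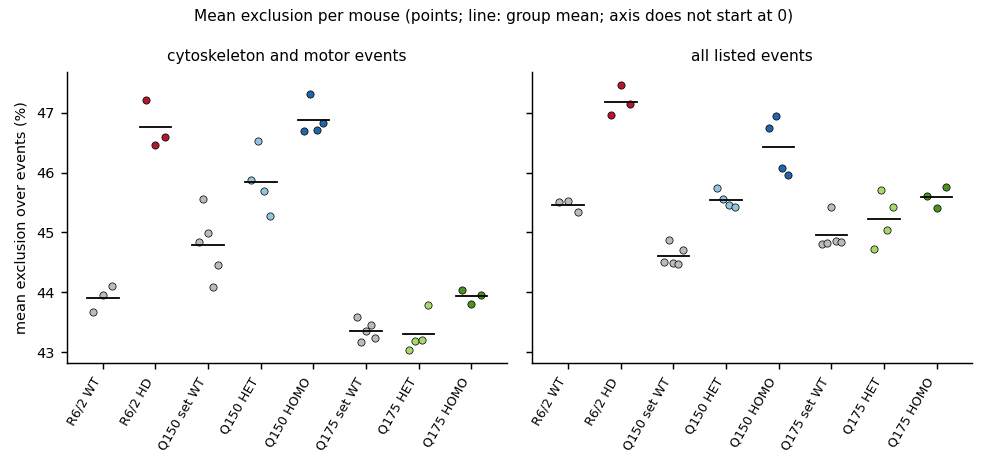
Mean exclusion per mouse (percent, y axis, not starting at 0) over the cytoskeleton and motor events (left) and over all listed events (right), by group (x axis); points are mice and lines group means. The 3 R6/2 HD mice lie at 46.5% to 47.2% on the left, above the R6/2 WT mice at 43.7% to 44.1%.

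The change in 1 model was tested against that in another over the 1662 events listed in all sets. R6/2 HD and Q150 HOMO changes differed at 13 member events (10 more positive in R6/2; all events 9.69%, with 5.29% more positive and 4.39% more negative). R6/2 HD and Q175 HOMO changes differed at 13, all more positive in R6/2. Over all events the share was 11.6%, with 9.15% more positive and 2.47% more negative, so that all events leaned the same way. With each mouse centred R6/2 HD and Q175 HOMO changes differed at 8 members (all events 10.2%). Q150 HOMO and Q175 HOMO changes differed at 3, Ank2 event 9470, Dync1i2 and Ttc3 event 9430 (all events 2.77%). Those more positive in R6/2 than in both knock-in lines were Ank1 event 9445, Clasp1 event 5013, Epb4.1 event 7146, Macf1, Mtap7d2, Pdlim5 and Spna2 event 8904.

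How much of an event's 2 junctions was counted at all, in summed counts scaled to the library total (CPM), is a readout that exclusion does not use. In bulk cortex, fewer cells of a type and less RNA per cell cannot be told apart in it. In R6/2 39 of 81 member events passed (all events 44.6%), 26 higher (29.7%) and 13 lower (14.9%). In Q150 HOMO mice 11 of 87 passed (14.2%), 8 higher (9.41%) and 3 lower (4.76%), and in Q175 HOMO mice 13 of 86 (12.8%), 6 higher (7.01%) and 7 lower (5.82%). Once the series was a term of the fit, 22 passed in Q150 HOMO mice (all events 28.3%) and 5 in the Q175 HOMO group (5.38%). With each mouse centred on its median event the split moved towards lower counts, with 18 higher and 18 lower in R6/2 (all events 22.6% and 17.8%), 3 and 9 in Q150 HOMO mice (3.75% and 8.18%) and 3 and 8 in the Q175 HOMO group (4.4% and 7.29%). No member passed in HET mice by limma, while 12 in Q150 HET and 7 in Q175 HET mice had an unadjusted p below 0.05; once the series was a term of the fit, 5 of 87 passed in Q150 HET mice (all events 5.6%). The medians over members were 0.08 (R6/2), 0.03 (Q150 HOMO) and 0.03 (Q175 HOMO), beside 0.13, 0.06 and 0.04 over all events.

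Epb4.9 (now Dmtn), which encodes dematin, an actin bundler of the spectrin skeleton, was lower in all 3 models. It stood at 6207, 6129.7 and 6166 CPM in R6/2 WT and 4631, 4435 and 4469 in R6/2 HD mice (-0.45 ± 0.06), and fell by 0.32 on the log2 scale in Q150 HOMO mice and by 0.34 in the Q175 HOMO group (adjusted p = 0.0097 in each). The Q175 call was lost without HOMO mouse 1. In R6/2 the neuronal markers Dlg4, Grin1 event 3900 and Syt1 were lower as well, by limma (-0.68, -0.64 and -0.32), but not Grin1 event 3938 (-0.13, adjusted p = 0.387). Grin1 event 3900 was also lower in Q150 HOMO mice (-0.42, adjusted p = 0.0286) and in the Q175 HOMO group (-0.37, adjusted p = 0.00238), where the other 3 marker events did not pass. The part of these markers in the Epb4.9 result was not tested. Epb4.1 event 4139 stood at 411, 440 and 443 CPM in R6/2 WT and 232, 213 and 258 in HD mice (-0.88 ± 0.09), and Epb4.1l1 event 4196 fell by 0.54 in R6/2 and by 0.30 in Q175 HOMO mice. That Q175 call was lost once the series was a term of the fit (-0.25, adjusted p = 0.211), without the variance trend and without WT mouse 6, 7 or 10 or HOMO mouse 1 or 2.

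Counts of Klc1 were higher in all 3 models, at 5610.0, 5813 and 5689 CPM in R6/2 WT and 7968, 8618 and 7308 in HD mice (0.48 ± 0.07), and by 0.37 in Q150 HOMO mice and 0.23 in the Q175 HOMO group. With each mouse centred neither knock-in call was kept (0.28 and 0.18, adjusted p = 0.0608 and 0.0935). The Q150 call was also lost without WT mouse 4 or HOMO mouse 1 or 2. That of Q175 was lost once the series was a term of the fit (0.16, adjusted p = 0.233), without the variance trend and without WT mouse 7 or 8 or HOMO mouse 2. Counts of Kif1a moved in opposite directions, lower in R6/2 HD mice (2198, 2165.5 and 1953 CPM against 2511, 2388 and 2632; -0.25, lost without WT mouse 6) and higher in Q175 HOMO mice (0.32, adjusted p = 0.0076); no test set these 2 changes against each other. Ttc14, a gene of the tetratricopeptide group, fell from 116, 152 and 158 to 77.1, 62.7 and 78.6 CPM in R6/2 (-0.95 ± 0.14, adjusted p = 0.00011) and by 0.51 in Q175 HOMO mice, where the call was lost once the series was a term of the fit (-0.37, adjusted p = 0.0527). Ttc3 event 8731, at 8.33, 8.29 and 6.80 CPM in R6/2 WT and 21.2, 16.9 and 19.8 in HD mice, rose by 1.21 ± 0.22 (adjusted p = 0.000518), and by 0.90 in Q150 HOMO mice (adjusted p = 0.00282). Ttc23 stood at 78.1, 80.6 and 75.7 CPM in R6/2 WT and 35.2, 8.85 and 50.3 in HD mice; the groups did not overlap, and the HD mice were spread widely (-1.59 ± 0.41, adjusted p = 0.0062). Without HD mouse 868, at 8.85 CPM, the change was -0.88, and the call was kept. Dync1i2 and Ppfibp1 event 4469 rose in Q150 HOMO mice by 0.37 and 0.46 (adjusted p = 0.0044 and 0.0091).

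A second list by symbol held further cytoskeletal genes that the rule does not take (formins, an Arp2/3 subunit, zyxin, Nav and Dclk genes and others); 3 events of MAP kinase genes that its pattern also caught were left out after the values were seen, and none of them passed in R6/2 HD or in either HOMO group. Of the 41 events that remained, 40 were listed in R6/2, where 17 passed (all events 28.6%), 15 higher (21.1%) and 2 lower (7.46%). Among the Q150 HOMO mice 15 of 38 passed (23.9%), 14 higher (19.8%) and 1 lower (4.09%), and in Q175 HOMO mice 5 of 37 (7.07%), all higher (5.6%). Sorbs2 event 4678, chosen after the values were seen, changed by 1.29 in R6/2, 0.95 in Q150 HOMO mice and 0.46 in the Q175 HOMO group. The lower Q150 HOMO call was a further Sorbs2 event, 4748 (-0.60, adjusted p = 0.0134; -0.37 in R6/2, adjusted p = 0.0989). The 2 events with lower exclusion in R6/2 were in Cobl, an actin nucleator (-0.61), and Arpc5, a subunit of the Arp2/3 complex (-0.52).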

How the data were processed

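The authors counted RASL-seq reads on junction probes and deposited 1 table per mouse with whole-number counts of the short and long junction of each event; the lowest listed count was 4, and replicates were not pooled. The processing notes name mm10, but only 45 of 1922 events had both positions on GRCm38 exon boundaries, so exons were matched to GENCODE vM21 by gene and flanking distance and the files' coordinates were not used. Aligner and counter are not given in the sources used here. Titles and genotypes disagree on the knock-in line, which was taken from the glutamine numbers in the genotypes; the methods' number of HOMO mice per line differs from that of the labels, which a legend in the study's supplement shares.

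Changes were fitted with limma 3.58.1 (R 4.3.3) on log2((short + 0.5)/(long + 0.5)), a mean per group within each set, with a variance trend and Benjamini-Hochberg adjustment over all events of the set. A mean of at least 10 summed counts was required, which removed no event. Summed counts were tested as log2(CPM + 1), where CPM was computed here from the deposited counts, so a fold change on that scale is understated for low events. Differences between models were fitted over the events listed in all sets. The fit was tested on simulated data.

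Named events were those that passed in the same direction in all 3 models, the largest changes without overlap in each comparison, all events of 14 well-known cytoskeletal genes, and the largest summed-count changes; others (Spna2 event 8509, Epb4.1l4b, Clip2, Dync1i1, Kif21a, Kif2a and the genes outside the symbol rule) were named after their values were seen. The members, lists and tests were chosen with earlier results of these data known. Replicates are separate mice. Alternatives were the count minimum, pseudocount, centring, variance trend, series of mouse numbers, all knock-in WT mice, and leaving out each mouse. The sequence of 1 related pair of exons and some genes outside the symbol rule are not reported here.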

Additional observations from a re-analysis of the deposited data

Results flagged for a closer look

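Single mice stood far from the others of their group in 9 of 213 groups tested (4.23%, where chance gives about 1 in 20). They were exclusion of Ank1 event 9445 (1.93%) and Ank3 event 4520 (96.7%) in 1 WT mouse each of the Q175 set, of Clasp1 event 5013 (10.2%), Klc1 (45.4%), Mapt event 4118 (95.4%) and Mtap7d2 (3.27%) in 1 WT mouse each of the Q150 set, of Epb4.1 event 4139 in a Q150 HET mouse (32.4%), and of Ank3 event 8259 (74.9%) and Spna2 event 8904 (73.6%) in a Q150 HOMO mouse.

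The change in R6/2 HD mice differed from that in Q150 HOMO mice (limma, adjusted over the events listed in all sets) at Ank1 by 1.94 on the log2 scale, at Clasp1 event 5013 by 0.94, at Dst events 4084 and 5011 by 0.79 and 0.59, at Dync1i2 by -0.75, at Epb4.1 event 7146 by 0.75, at Kif2a event 3904 by -0.71, at Macf1 by 1.03, at Mtap7d2 by 0.79, at Pdlim5 by 1.10, at Spna2 event 8904 by 1.22, and at Ttc3 events 8606 and 9430 by -1.27 and 1.13.

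It differed from that in Q175 HOMO mice at Ank1 by 1.33, at Ank2 event 9470 by 0.78, at Clasp1 events 4930 and 5013 by 0.93 and 1.03, at Enah by 1.29, at Epb4.1 event 7146 by 0.63, at Kif1a by 1.10, at Macf1 by 1.502, at Mtap7d2 by 0.86, at Pdlim5 by 1.30, at Ppfibp1 event 4382 by 1.80, and at Spna2 events 8509 and 8904 by 0.55 and 1.98. Q150 HOMO and Q175 HOMO changes differed at Ank2 event 9470 by 0.51, at Dync1i2 by 0.66 and at Ttc3 event 9430 by -1.10.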

How the results depend on the processing

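Shares of all events under the same setting stand in brackets. With single mice left out they were not computed. In R6/2 HD mice 16 to 23 member events passed under the alternatives run, with 16 without the variance trend (22.5%) and 22 with centring (27.6%). In Q150 HET mice the 5 calls became 2 with each mouse centred on its median event (2.24%), 1 without the variance trend (1.68%), 2 within the high series of mouse numbers (3.25%) and 9 against all 10 knock-in WT mice (10.7%), and leaving out single mice gave 0 to 5. The 27 calls in Q150 HOMO mice became 18 with centring (18.3%), 7 within the high series (8.29%) and 33 with the series as a term (30.2%). For Q150 HOMO against HET, 2 calls became 1 with centring (0.896%) or without the trend (1.29%) and 7 with the series as a term (4.48%), and 1 to 4 with single mice left out. The 1 call in Q175 HET mice became 0 with centring (0.489%), without the trend (0.0544%), with the series term (0.218%) and against all WT mice (0.289%), and 0 to 1 with mice left out. The 10 calls in Q175 HOMO mice became 0 without the trend (2.12%), 3 with the series term (4.46%), 5 within the high series (6.14%) and 5 against all WT mice (4.22%), and 5 to 10 with mice left out. The 1 call of Q175 HOMO against HET became 0 without the trend (0.0544%) and with the series term (0.163%). Differences between R6/2 HD and Q175 HOMO changes numbered 8 after centring (10.2%) and 13 before (11.6%). For summed counts, 11 calls in Q150 HOMO mice became 22 with the series term (28.3%) and 5 to 10 with mice left out, and 13 in Q175 HOMO mice became 5 with the series term (5.38%) or without the trend (9.24%) and 4 to 11 with mice left out. The median over events in place of the mean gave a change in exclusion of 5.74 points in R6/2, 2.69 in Q150 HOMO, -0.84 in Q175 HET and 1.45 in Q175 HOMO mice. Exclusion of Mtap4 event 7683 was not called in Q150 HOMO mice with all mice in the fit (-0.02). Within the low series its change was 0.43, and it passed within the low and the high series alike. Of 68 named results that passed, 25 kept their call under every alternative. The cause was not tested. The values within a series, the centred differences between models and the series term for summed counts were chosen after seeing the data. No paired analysis was possible because mouse numbers do not pair the groups. Few counts limit Ttc3 event 8731, whose interval half-width reached 20.5 points.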
